A study of Sus scrofa with 48 samples.

Results

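A set of 40 named genes of mitosis and DNA replication was followed in perirenal adipose tissue of growing pigs. A member was any probe of the array whose gene name, letter case ignored, was one of the 40 symbols, and the probe with the highest mean signal stood for its gene. By this rule 30 of the 40 genes had 1 or more probes, 56 probes in all, among 60305 probes that were not array controls and 11954 gene symbols with a probe. No probe carried the names MCM4, MCM5, MCM7, TK1, TYMS, CCNA2, BUB1B, MAD2L1, CENPA or NDC80, and these 10 genes were not analysed here.

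The study compared the fat depot around the kidney in 48 castrated male Large White pigs at 132 days of age, 1 single-colour array per pig. Pigs came from lines selected for low or for high residual feed intake (RFI), the feed eaten beyond what growth and maintenance predict, so that low RFI means efficient pigs. Within each line 12 pigs had free access to a diet rich in fat and fibre (HF) and 12 to one low in fat and fibre (LF), in which more of the energy came from starch. The 4 groups were thus HF_RFIneg and LF_RFIneg (low RFI, the efficient line) and HF_RFIpl and LF_RFIpl (high RFI). No untreated group was part of the design, each diet was the other's reference, and each line stands for 1 selection experiment.

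Cells copy their DNA in S phase and divide in M phase, and each phase has its own protein set. The MCM proteins form the helicase that opens DNA at origins, PCNA is the ring that holds polymerases on the template, and ribonucleotide reductase supplies deoxynucleotides. CDK1 with B-type cyclins starts mitosis, and Aurora and Polo kinases, kinetochore proteins and motors then separate the chromosomes. In adipose tissue mature fat cells do not divide, so transcripts limited to dividing cells would come from progenitors, immune and vascular cells. Some members, such as TOP2B, are found in resting cells too, and the cell source of no member was measured. In bulk tissue a lower signal from fewer dividing cells and one from less RNA per cell cannot be told apart.

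The probes are 60-base sequences, and those below carry the main results or a question of identity. The first 5 are the whole probes of TOP2A, CDK1, DLGAP5, MCM2 and PCNA, printed 5′ to 3′ as the scanner files give them. The next 3 lines are the first 30 bases of the 3 probes named MKI67, of which the third has another accession than the first 2, and the last is the final 30 bases of the AURKB probe used here, with the letters AATAAA in capitals.
TOP2A: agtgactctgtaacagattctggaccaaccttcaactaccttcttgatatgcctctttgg
CDK1: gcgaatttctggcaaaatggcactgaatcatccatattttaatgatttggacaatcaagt
DLGAP5: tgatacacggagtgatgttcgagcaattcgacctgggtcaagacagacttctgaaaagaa
MCM2: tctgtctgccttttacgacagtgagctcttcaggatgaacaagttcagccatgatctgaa
PCNA: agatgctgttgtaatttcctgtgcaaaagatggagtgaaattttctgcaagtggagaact
MKI67 A_72_P137636: catcttgtatcattatcctcaatctagagg
MKI67 A_72_P441843: ctattacccacagctttaagaactaaactg
MKI67 O7450: aaccagtgaacacaccaagtaggaagggac
AURKB A_72_P440256: ttAATAAAggcggaagcgttttgtaaaaaa

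Gene names are those of the array's design, so they were set against RefSeq. Of the 56 member probes 26 carried an accession of the RefSeq table of Sscrofa11.1, 24 under the same symbol and 2 under another. The 2 exceptions were both named MKI67, which encodes the proliferation antigen Ki-67. Their accession belongs in RefSeq to NIFK, a nucleolar protein that binds Ki-67. The third, O7450, has an accession outside the table. The rule's choice for MKI67 was A_72_P441843, so the values given below for MKI67 are those of a probe that RefSeq assigns to NIFK. The files place no probe on a genome build, and no coordinates are given.

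Each of the 6 slides held 8 arrays, 2 of each group, and 3 slides were scanned on each of 2 days. Between 38875 and 47814 probes per array lay well above background (median 43728), no spot was saturated, and the number of arrays limits the precision. The arrays of 3 LF pigs were least like the median profile (LF_RFIpl replicates 11 and 3, LF_RFIneg replicate 11), and LF_RFIpl replicate 6 stood apart in B and plasma cell markers, with a mean log2 deviation of 1.81 against at most 0.31 in the other pigs. The 5 lowest correlations with that profile were all of LF arrays, down to 0.982, and the lowest of an HF array was 0.9904. Fat cell markers were measured for 7 of 8 listed genes, all 7 well above background on at least 24 arrays, and of 3 measured kidney markers AQP2 was, while SLC12A1 and NPHS1 were not.

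Most members were detectable in the fat. Values are log2 of the median spot signal minus the median of the array, so a value of 0 is the array's median probe. Of the 30 genes, 28 were well above background on at least 24 of the 48 arrays and were tested, and 19 of them on all 48. The exceptions were TTK, a spindle checkpoint kinase seen on 14 arrays, and KIF20A, a motor of cytokinesis seen on 6, each by the same number of arrays in HF and LF. Dim members such as CDC20, PLK1 and KIF2C were above background more often in HF than in LF pigs. CDC20, the activator of the anaphase promoting complex, was above background in 22 HF and 15 LF pigs. CENPE, a kinetochore motor, ran the other way, with 8 HF and 19 LF pigs.

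**Figure D1:**
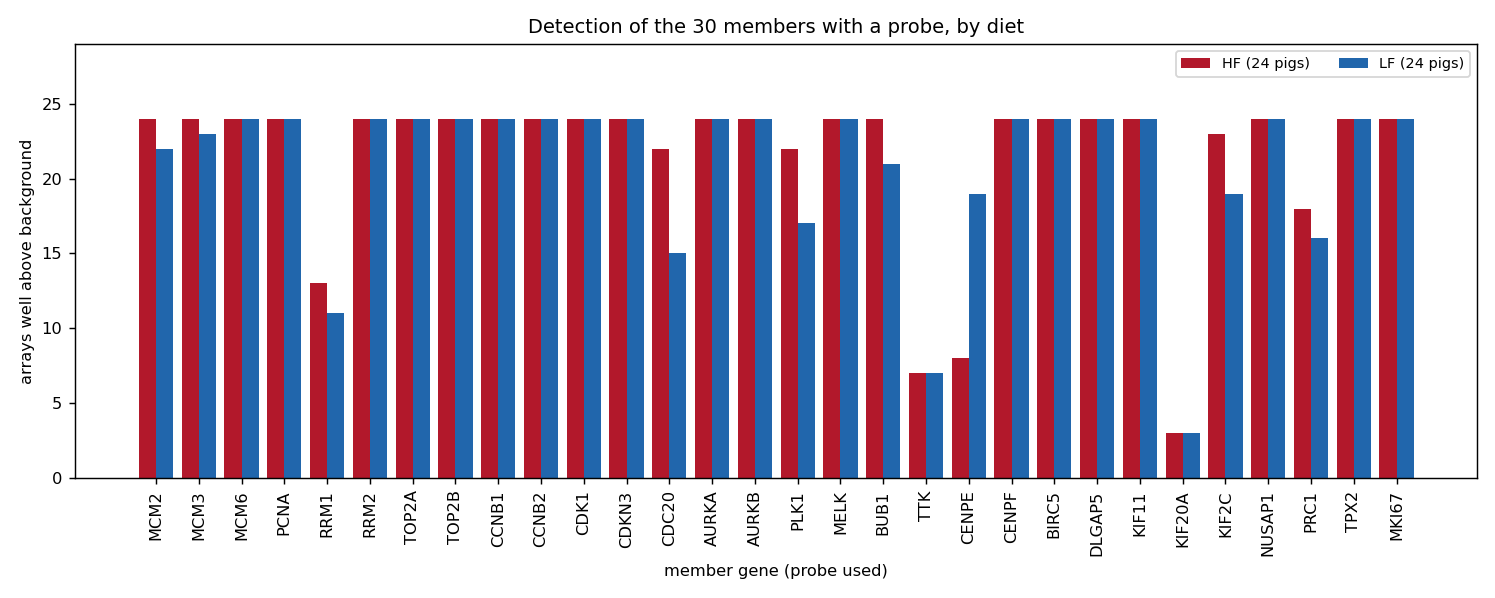
Number of arrays on which the probe of each of the 30 members was well above background, as red bars for the 24 HF pigs and blue bars for the 24 LF pigs. TTK and KIF20A were under the minimum of 24 of 48 arrays, and CENPE was above background in 8 HF and 19 LF pigs.

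In all, 5 members were higher and 3 lower in HF than in LF pigs. The higher ones were TOP2A, MCM2, RRM2, DLGAP5 and MCM3, and the lower ones PCNA, CENPE and the probe named MKI67. A call needed a raw p under 0.01, a fold over 1.1 and a Benjamini-Hochberg (BH) adjusted p under 0.08 in limma over all 43355 probes tested. Under the same rule 23.1% of all tested probes were called, 8.56% as higher and 14.5% as lower, and the members' share of 28.6% lay close to that. Their direction was not that of the array: 21 of 28 members had a difference above 0, against 43.9% of all probes, with a median of 0.10 against -0.022. The members varied together between pigs, so these counts are not of independent genes.

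Among the MCM helicase subunits, MCM2 was higher in HF. Its lowest, median and highest values were -0.89, -0.59 and -0.11 in HF_RFIneg, -0.80, -0.31 and 0.38 in HF_RFIpl, -1.44, -0.98 and -0.41 in LF_RFIneg, and -1.48, -0.71 and 0.26 in LF_RFIpl. The ranges overlapped, yet 23 of 24 HF pigs lay above the LF mean. The HF minus LF difference was 0.38 ± 0.095 (SE, n = 24 per diet), a 1.30-fold change with a BH p of 0.00245 in limma. MCM3, a partner subunit, ran from -1.29 to -0.39 in HF (median -0.81) and from -1.5 to -0.30 in LF (median -1.04). Its difference was 0.20 ± 0.070 (SE), BH p = 0.0269, and 20 HF pigs were above the LF mean. MCM6 had a difference of 0.027 ± 0.086 (SE), BH p = 0.840, so the 3 measured subunits did not all pass.

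The genes of the clamp and of nucleotide supply went apart. RRM2 encodes the small subunit of ribonucleotide reductase that is made in S phase. It ran from 0.20 to 1.64 in HF (median 0.99) and from -0.55 to 1.92 in LF (median 0.65), and the difference was 0.38 ± 0.14 (SE, BH p = 0.0319). The highest and the lowest RRM2 values both came from LF pigs. PCNA ran from 0.46 to 1.24 in HF (median 0.79) and from 0.67 to 1.35 in LF (median 0.99). It was lower in HF by 0.18 ± 0.057 on the log2 scale (SE, BH p = 0.0164), with 18 of 24 HF pigs below the LF mean and 7 below every LF pig. RRM1, the large reductase subunit, had a difference of -0.17 ± 0.12 (SE, BH p = 0.264) from a probe above background on 24 arrays.

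TOP2A, the topoisomerase that untangles chromosomes in dividing cells, showed the largest difference of the 28 members. It ran from 1.1 to 3.01 in HF_RFIneg (median 2.02), from 1.73 to 2.70 in HF_RFIpl (median 2.32), from 0.78 to 2.66 in LF_RFIneg (median 1.51) and from 0.068 to 3.17 in LF_RFIpl (median 1.99). HF values sat inside the LF range, and 22 of 24 HF pigs were above the LF mean. The difference was 0.47 ± 0.17 (SE), a 1.39-fold change, BH p = 0.0330. A further probe under the older name TOPOII, which RefSeq gives to TOP2A, differed by 0.33 ± 0.15 (SE, BH p = 0.101), short of the thresholds. TOP2B, the form found in resting cells, had a difference of -0.089 ± 0.040 (SE, BH p = 0.0890).

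No cyclin, mitotic kinase or checkpoint gene passed. CDK1, the kinase that starts mitosis, came nearest with a difference of 0.41 ± 0.16 (SE, raw p = 0.0134, BH p = 0.0478) and missed on the raw p alone. Its medians were 0.90 in HF and 0.49 in LF, and 21 of 24 HF pigs were above the LF mean. Cyclin B1 (CCNB1), its partner, had a difference of 0.0095 ± 0.14 (SE, 95% interval -0.26 to 0.28). The differences of AURKA, AURKB, PLK1 and MELK lay between -0.029 and 0.13, and that of the checkpoint kinase BUB1 was 0.22 ± 0.13 (SE, BH p = 0.212).

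At the kinetochore and spindle 2 members passed, in opposite directions. DLGAP5, which bundles spindle microtubules, ran from -0.73 to 0.53 in HF (median -0.11) and from -1.27 to 0.74 in LF (median -0.51). Its difference was 0.33 ± 0.11 (SE, BH p = 0.0226), and all but 3 of the HF pigs exceeded the mean of the LF pigs. The second DLGAP5 probe differed by 0.13 (BH p = 0.293). CENPE ran from -1.76 to -1.13 in HF (median -1.5) and from -1.64 to -0.88 in LF (median -1.28), a difference of -0.19 ± 0.051 (SE, BH p = 0.00384). That probe was above background in 8 of 24 HF and 19 of 24 LF pigs, so it entered the test mainly through the group where it was high, most HF values were at background, and the size of the difference is uncertain. It has no stop-free reading frame as written, but 2 on the opposite strand. The BIRC5 probe used here, with an r of 0.66 with TOP2A, has the same pattern, so this trait is not particular to CENPE. CENPF, a kinetochore and nuclear matrix protein, had a difference of 0.35 ± 0.15 (SE, raw p = 0.0255, BH p = 0.0765). All 7 spindle and cytokinesis genes tested had differences above 0, DLGAP5 alone past the thresholds, with TPX2 at 0.23 and KIF11 at 0.019.

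The probe used for MKI67 ran from 4.44 to 5.03 in HF (median 4.66) and from 4.61 to 5.39 in LF (median 4.96). It was lower in HF by 0.25 ± 0.052 on the log2 scale (SE, BH p = 0.000344), in 21 of 24 pigs against the LF mean. The second probe of the NIFK accession was lower by 0.23 ± 0.056 (SE, BH p = 0.00189). O7450, whose accession is not that of NIFK, had a difference of 0.0094 ± 0.050 (SE, BH p = 0.905), with medians of -1.33 in HF and -1.35 in LF. It is a dim probe, above background on 38 arrays, so its small difference is of limited weight. The lower value in HF was therefore a measurement of the NIFK-accession probes, and with O7450 in its place 7 members were called, 5 higher and 2 lower.

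**Figure D2:**
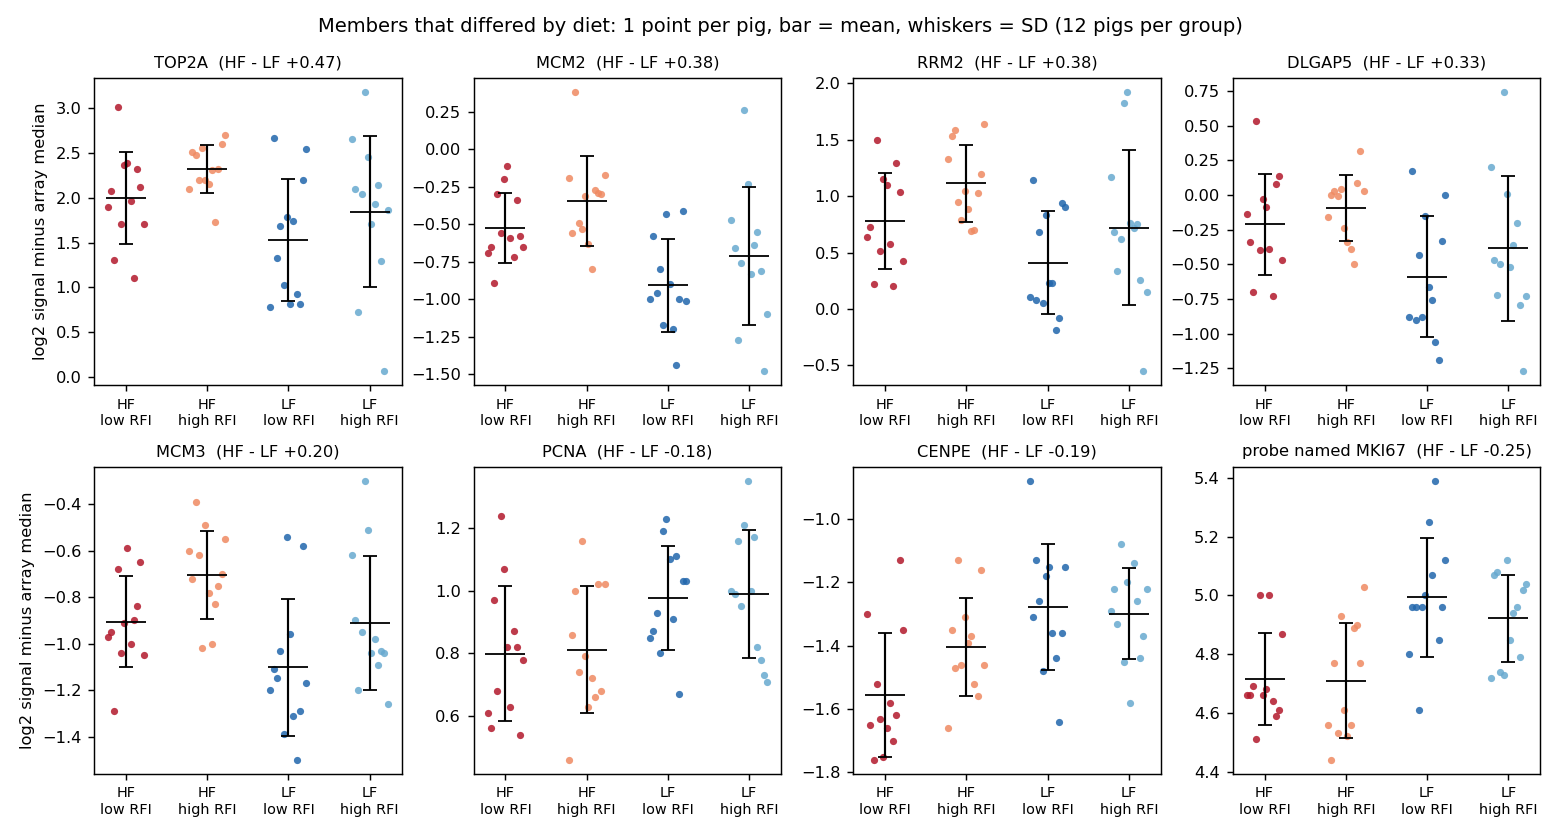
Values of the 8 members that passed the thresholds for diet, 1 point per pig in each of 4 groups of 12, with the mean as a bar and the SD as whiskers, on a log2 scale relative to the array median. All ranges overlap between diets, and TOP2A spans 0.068 to 3.17 in LF against 1.1 to 3.01 in HF.

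**Figure D3:**
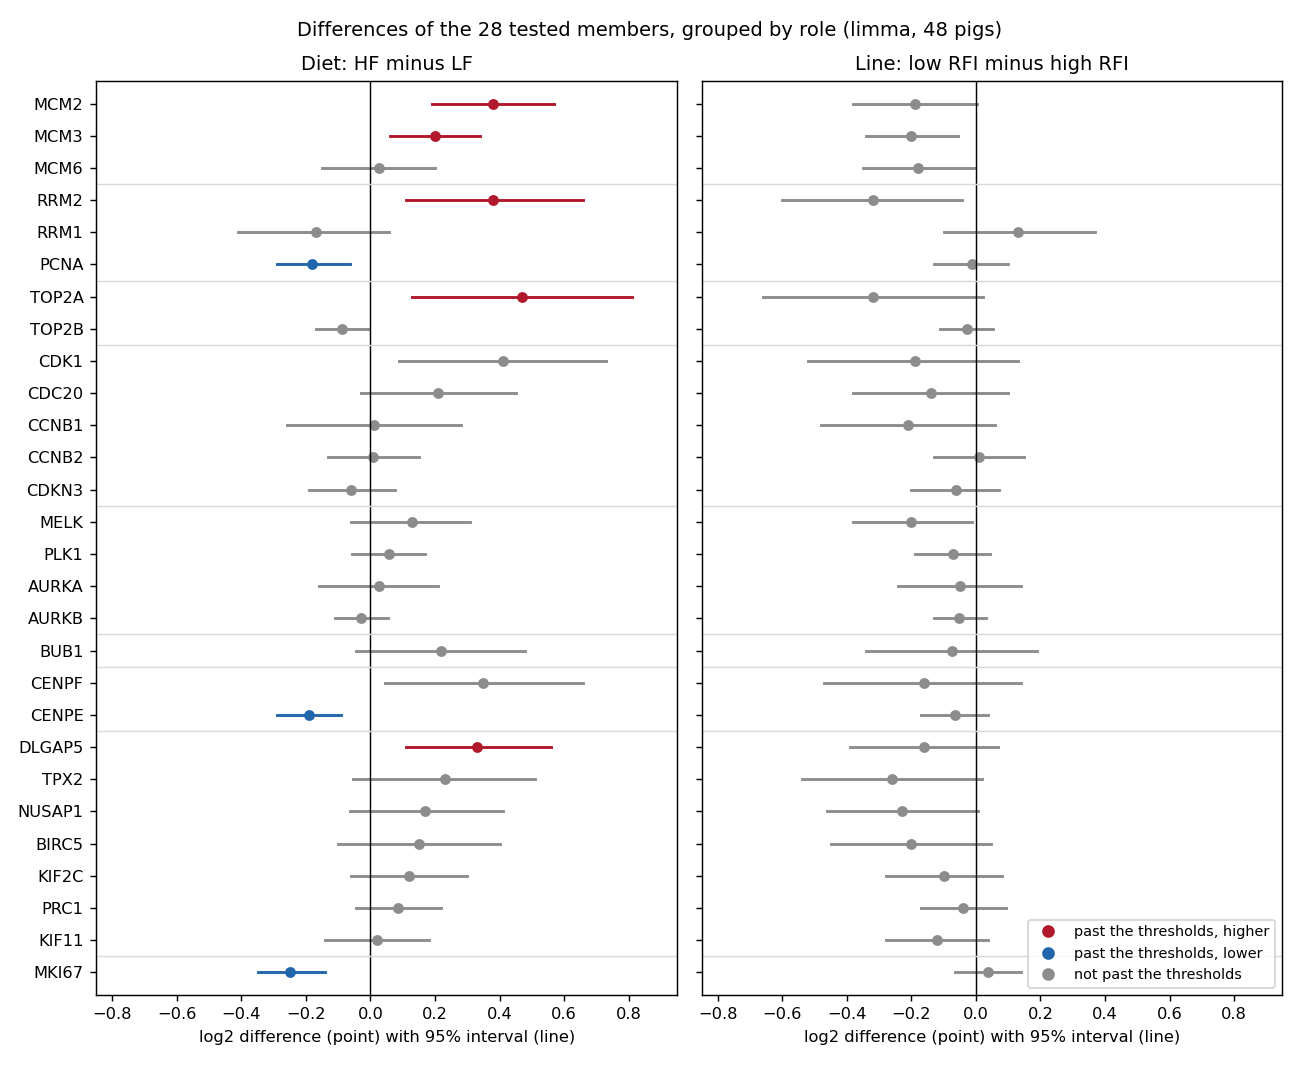
Log2 differences of the 28 tested members for diet (left, HF minus LF) and line (right, low minus high RFI) with 95% intervals, in blocks by role and coloured where past the thresholds. For diet 21 points lie above 0 and 8 are coloured, whereas for line 25 lie below 0 and none is coloured.

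Several calls rested on few arrays. Without the 3 arrays least like the median profile, all LF, 5 members were called, as TOP2A (0.36, BH p = 0.0637), RRM2 (0.33, BH p = 0.0562) and DLGAP5 (0.28, BH p = 0.0498) no longer passed, while MCM2 (0.33), MCM3 (0.20), PCNA, CENPE and MKI67 still did. Leaving out 1 array at a time, MCM2, DLGAP5, PCNA, CENPE and MKI67 were called in all 48 fits, MCM3 in 41, RRM2 in 28 and TOP2A in 27. Under the two-way ANOVA of the study's methods 6 members were called, since TOP2A (raw p = 0.0106) and RRM2 (raw p = 0.01 after rounding) missed the raw p. Leaving out 1 array, the count dropped to 5 without any 1 of HF_RFIneg replicate 7 or 11, HF_RFIpl replicate 3, LF_RFIneg replicate 5 or 9, or LF_RFIpl replicate 3. Without LF_RFIpl replicate 6, the array high in B cell markers, the same 8 members were called.

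By scan day, TOP2A differed by 0.33 on day 1 and 0.61 on day 2, MCM2 by 0.26 and 0.49, RRM2 by 0.21 and 0.56, and MKI67 by -0.23 and -0.27. With 24 arrays each, 2 members passed on day 1 (CENPE and MKI67, both lower) and 6 on day 2 (CDC20, DLGAP5, MCM2, MCM3 and RRM2 higher, MKI67 lower). Of all probes 12.0% were called on day 1 (1594 higher, 3603 lower) and 13.1% on day 2 (2042 higher, 3623 lower). All 8 members had the same sign on both days.

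Centring decided the lower calls. When arrays were aligned on their spike-in transcripts instead of their median, the median of all probes moved from -0.022 to 0.087 and 10706 probes were higher against 1734 lower, in place of 3712 and 6300. The members then counted 8 higher (TOP2A, MCM2, MCM3, RRM2, DLGAP5, CDK1, CENPF and PLK1) and 0 lower, with PCNA at -0.067 (BH p = 0.454), CENPE at -0.083 (BH p = 0.159) and MKI67 at -0.14 (BH p = 0.0763). Centring on the 75th percentile left 6 members higher and 3 lower, with CDK1 added, and all probes at 4948 higher and 4969 lower. The 5 higher members were thus called under all 3 centrings, the 3 lower ones under the array median and the 75th percentile only. Both other centrings raised the median of all probes, to 0.00063 for the 75th percentile and 0.087 for the spike-ins. A shift upward favours higher calls, so their retention is no separate check of the 5 higher members. Under spike-in centring 28.7% of all probes were called, 10706 of 43355 as higher.

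Within low RFI, where 12 HF and 12 LF pigs were compared, 3 members were called (MCM2 higher, CENPE and MKI67 lower), against 12.7% of all probes (4.43% higher and 8.24% lower). Within high RFI 2 were called (MCM2 higher, MKI67 lower), against 14.2% (4.54% higher and 9.71% lower). MCM2 differed by 0.39 in low RFI and 0.37 in high RFI, and TOP2A by 0.47 in both. The calls within high RFI were not stable, with 0 to 3 when 1 array was left out. Without LF_RFIpl replicate 6 the 2 calls there were MCM2 and RRM2, both higher. Without the 3 atypical arrays, those least like the median profile (2 of them LF_RFIpl), CDKN3 alone was called there, as lower. The median difference of the 28 members within high RFI then went from 0.085 to -0.0021, with 13 above 0. Within low RFI the same 3 members were called without these arrays, and the median was 0.12. On scan day 1 the median within high RFI was -0.017 and on day 2 it was 0.20, with 0 members called on either day. Of all probes 4.43% were called within high RFI on day 1 and only 0.0208% on day 2. The diet by line interaction was called for 0 of the 28 members in limma (0.0% of all probes), and 0 members had an unadjusted interaction p under 0.05, against 2.31% of all probes. The median interaction of the members was 0.0072, and 0.14 without the 3 atypical arrays (23 of 28 above 0), 0.15 on scan day 1 and -0.15 on day 2, with 0 calls each time. For TOP2A the interaction was -0.0063 with a 95% interval of -0.69 to 0.68, an interval too wide to call the diet difference equal in the lines.

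By the probe used for each gene, none of the 28 members was called for line in limma, where 3.38% of all tested probes were. At an unadjusted p under 0.05 there were 4 (MCM3, MCM6, RRM2 and MELK) and at under 0.01 there was 1, MCM3, shares to set against 12.6% and 5.77% of all probes. A CDKN3 probe not used here was called lower in low RFI, with a difference of -0.17 ± 0.048 (SE, BH p = 0.0345 in limma). The CDKN3 probe used had one of -0.062 ± 0.067 (SE, BH p = 0.801). With the mean of the probes of each gene, 0 members were called for line. Differences of low minus high RFI were below 0 for 25 members, with a median of -0.13 against 0.00028 over all probes, of which 50.2% were above 0. On scan day 1 the median was -0.16 with 3 members above 0, and on day 2 it was -0.058 with 8 above 0. Within LF it was -0.29 on day 1 and 0.013 on day 2, where 15 of 28 members were above 0. The 3 largest were those of RRM2, TOP2A and TPX2. RRM2 ran from -0.19 to 1.5 in low RFI (median 0.61) and from -0.55 to 1.92 in high RFI (median 0.84), a difference of -0.32 ± 0.14 (SE, BH p = 0.279). TOP2A had a difference of -0.32 ± 0.17 (SE, BH p = 0.449), and TPX2, which activates Aurora A on the spindle, one of -0.26 ± 0.14 (SE, BH p = 0.449).

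MCM3 had the smallest BH p of the members for line, 0.144, with a difference of -0.20 ± 0.070 (SE) and 19 of 24 low RFI pigs below the high RFI mean. The 3 members above 0 were RRM1 (0.13 ± 0.12, SE, BH p = 0.733), MKI67 (0.038 ± 0.052, BH p = 0.846) and CCNB2 (0.0082 ± 0.070, BH p = 0.983). Without the 3 arrays least like the median profile, 5 members were called lower in low RFI: TOP2A (-0.50, BH p = 0.0477), RRM2 (-0.43, BH p = 0.0551), MCM2 (-0.27, BH p = 0.0674), MCM3 (-0.24, BH p = 0.0382) and NUSAP1. All probes were then called at 4.44%. The absence of calls for line thus did not hold without those arrays. MCM3 alone was called without LF_RFIneg replicate 6 or replicate 11. Within HF and within LF 0 members were called in limma, against 1.01% and 0.415% of all probes, and 2 and 0 had an unadjusted p under 0.05, against 9.61% and 6.61%.

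The members differed far more between pigs than between groups. Between the lowest and the highest pig TOP2A spanned 8.58-fold, CDK1 8.12-fold, BUB1 7.48-fold and CENPF 5.90-fold, whereas TOP2B spanned 1.59-fold. LF_RFIpl replicate 5 had the highest TOP2A, CDK1, CENPF, CCNB1, TPX2 and NUSAP1 of the 48 pigs, and LF_RFIpl replicate 11, one of the 3 atypical arrays, the lowest TOP2A.

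Spread was wider under LF for most members. With line means removed, the SD of TOP2A was 0.41 in HF and 0.76 in LF, that of CDK1 0.40 and 0.71, and that of AURKA 0.17 and 0.44. The AURKA value in LF includes LF_RFIneg replicate 12 at 1.76, with the next highest LF pig at 0.99. A further AURKA probe, above background on 45 arrays, had an SD of 0.14 in HF and 0.13 in LF, line means not removed. The remaining AURKA probe, above background on 13 arrays, had 0.13 and 0.23. In all, 21 of 28 members had the larger SD in LF, against 54.3% of all tested probes, and the median ratio of LF over HF was 1.43 against 1.03. Without the 3 atypical arrays, all of them LF, 20 of 28 members still had the larger SD in LF, against 46.4% of all probes, with a median ratio of 1.2 against 0.978 and a TOP2A SD of 0.61 in LF. These are descriptions over genes that move together, and the difference in spread was not tested.

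With group means removed, members were correlated over the 48 pigs. The points share the centring of each array, and the values are descriptions. Over the 378 pairs of the 28 members the median Pearson r was 0.39, 43.9% of pairs had an r over 0.5, and the first component held 51.8% of the variance. TOP2A had an r of 0.96 with CDK1, 0.95 with CENPF, 0.92 with NUSAP1 and TPX2, 0.90 with DLGAP5, 0.88 with CCNB1 and 0.86 with RRM2. Of the other 27 members 18 had an r over 0.5 with TOP2A, against 0.944% of 10062 other genes with a symbol.

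The other 9 members stood outside this set. TOP2B (-0.34), MKI67 (-0.18), KIF11 (0.038), CCNB2 (0.078), CENPE (0.12) and PCNA (0.17) had r with TOP2A near or below 0, and RRM1 (0.34), MCM6 (0.35) and AURKB (0.43) lay between. PCNA correlated best with MCM6 (r = 0.68), and MCM2 with RRM2 (0.83) and MCM3 (0.82). The 6 replication members had a median r of 0.36 among themselves, the 20 mitotic members with TOP2A one of 0.63, and pairs across these sets one of 0.34.

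**Figure D4:**
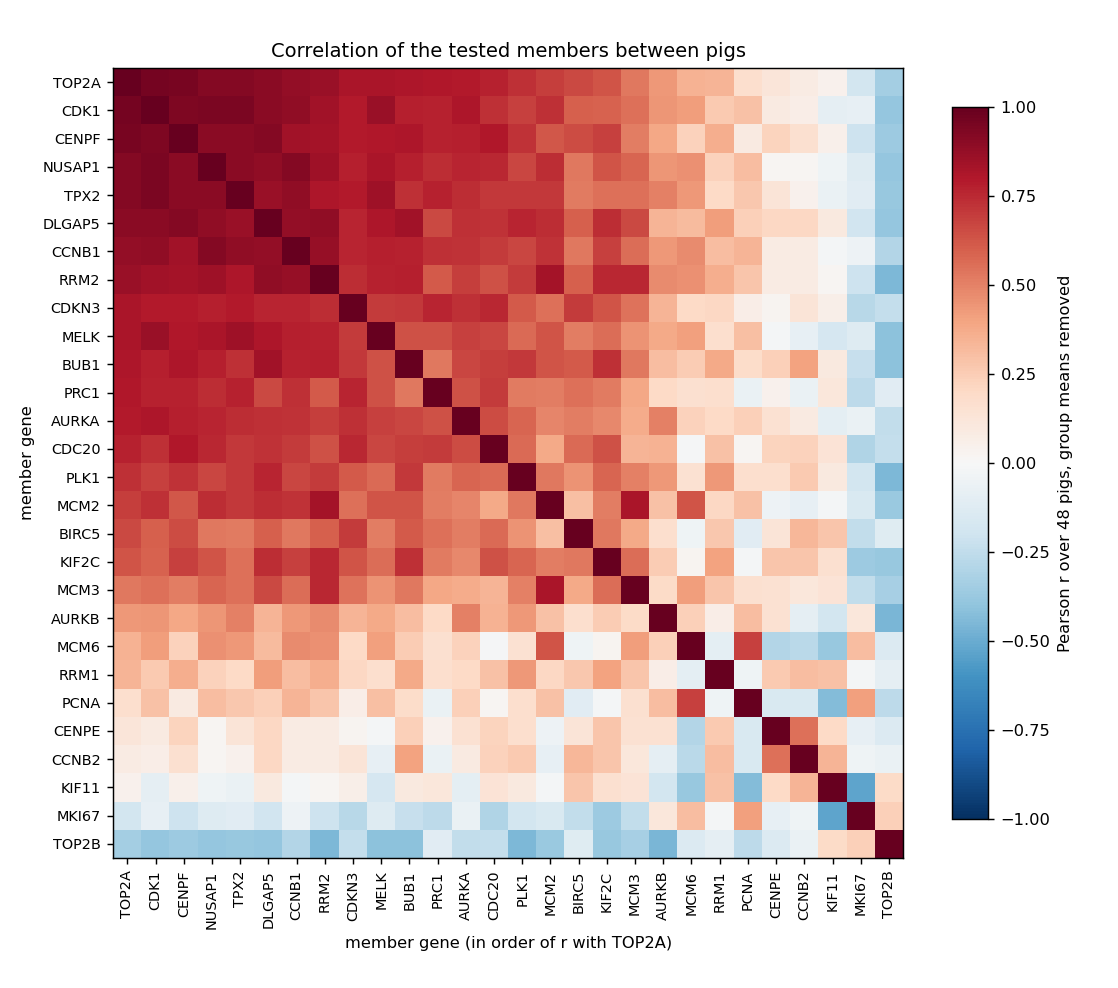
Pearson r between the 28 tested members over 48 pigs, group means removed, in order of r with TOP2A, from blue (-1) to red (1). A block of 19 genes from TOP2A to MCM3 has an r over 0.5 with TOP2A, and PCNA pairs with MCM6 at 0.68.

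For CCNB2 and KIF11 the array held a second probe with a higher r with TOP2A. The other CCNB2 probe had an r of 0.77 with TOP2A and the 2 CCNB2 probes one of 0.052 with each other. The other KIF11 probe, above background on 20 arrays and not tested, had an r of 0.60. The other TOP2B probe had an r of -0.19, and the other AURKB probes 0.38 and 0.44, much like those used. The AURKB probe used, for a kinase of chromosome alignment, holds AATAAA and ends in a run of 6 A, letters shown above, and differed by -0.029 for diet. The letters AATAAA, as written, are in 4 of the 56 member probes and in 10.3% of all probes. The other 2 AURKB probes differed by 0.23 (BH p = 0.0672) and 0.24 (BH p = 0.111), neither past the thresholds. By contrast the 4 CENPF probes had r of 0.85 to 0.94 with each other, the 3 BIRC5 probes 0.84 to 0.96, and the CDC20 pair and the MELK pair, each printed on the array with the same 60 bases, 0.80 and 0.88.

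The 3 probes named MKI67 split in the same way as their accessions. The NIFK-accession probes had an r of 0.83 with each other and of -0.10 and -0.18 with TOP2A. O7450 had an r of 0.57 with TOP2A and of -0.090 and -0.17 with the other probes.

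**Figure D5:**
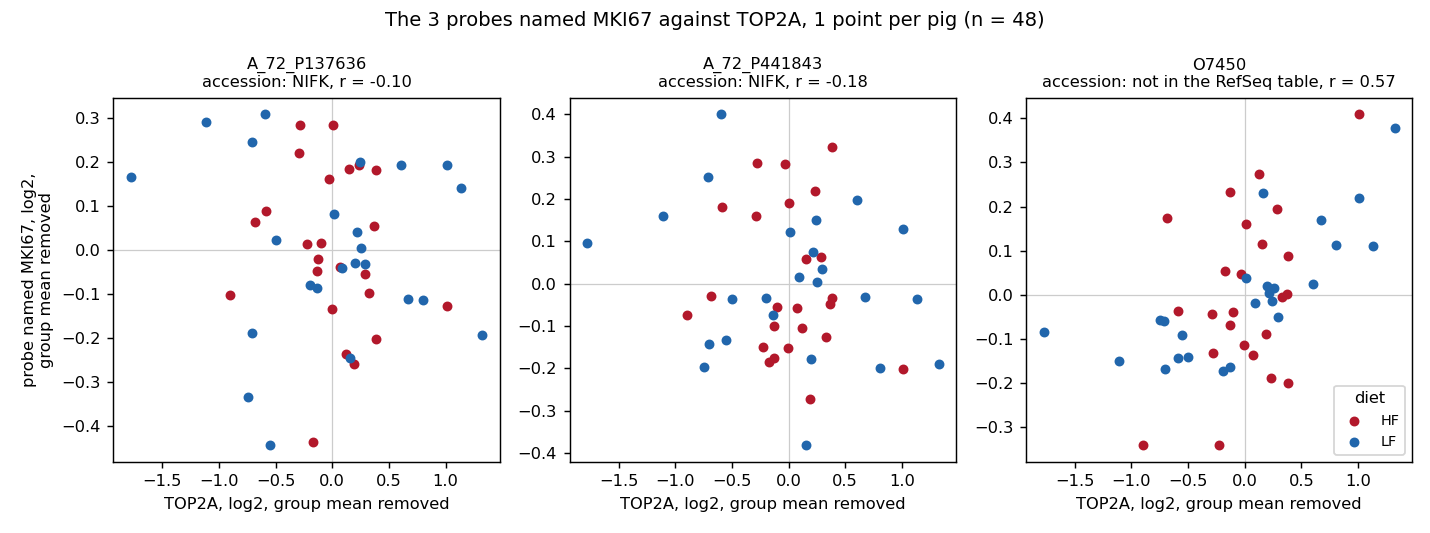
Log2 values of the 3 probes named MKI67 (vertical) against TOP2A (horizontal), group means removed, 1 point per pig in red for HF and blue for LF (n = 48). The probes whose accession RefSeq gives to NIFK have an r of -0.10 and -0.18, and O7450 one of 0.57.

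Outside the 40 genes, the 10 whose values were most like the mean of the tested members, each scaled to the same variance, were all mitotic. They were KIF4A (r = 0.96), ESPL1 and UBE2C (0.95), TACC3, SPAG5, KIF23 and CDCA3 (0.94), KIFC1 (0.93), and PTTG1 and PBK (0.91), over 48 pigs with group means removed. Their diet differences lay between 0.19 and 0.41, of which that of KIFC1 passed (0.38 ± 0.14, SE, BH p = 0.0353). Their line differences lay between -0.25 and -0.093, and none passed. The 10 were chosen for moving with the members over the same pigs, so these differences are not separate evidence.

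Of 175 further genes on 9 lists of replication, mitosis and cell cycle control, 134 had a probe and 116 were tested. For diet 11 were higher and 16 lower, with a median of -0.0036, close to the shares of all probes (8.56% higher and 14.5% lower). The 31 tested genes of the list of other mitotic genes had a median of 0.19, with 22 above 0, 4 called higher and 3 lower. The 11 of the anaphase promoting complex had a median of -0.075, with 3 called lower, and the 3 E2F activators one of -0.22, with 2 lower. Of the 24 genes on these lists with an r over 0.5 with TOP2A, 22 had a diet difference above 0, 4 called higher and 0 lower, against 35 of the other 92, of which 7 were called higher and 16 lower. The 24 were chosen by their r with TOP2A over the same pigs, so their differences are not separate evidence from that of TOP2A.

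The 10 largest calls for diet included both directions. CDKN1A, the p21 inhibitor of cyclin-dependent kinases, was lower in HF by 0.64 ± 0.11 on the log2 scale (SE, BH p = 1.88e-05), in 23 of 24 pigs against the LF mean. CKS2, a subunit of CDK1 complexes, was lower by 0.45, the antiproliferative TOB1 by 0.36, RRM2B, the p53-induced reductase subunit, by 0.28, CDK7 by 0.26 and TFDP2, a partner of E2F, by 0.24. KIFC1, a spindle motor, was higher by 0.38, BTG2, an antiproliferative gene, by 0.31, MYC by 0.27 and the condensin subunit NCAPH by 0.24.

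For line 4 of the 116 were called, close to the 3.38% of all probes. WDHD1, which links the helicase to polymerase alpha, was lower in low RFI by 0.84 ± 0.13 on the log2 scale (SE, BH p = 2.36e-05) and GINS2, a subunit of the active helicase, by 0.29 ± 0.061 (SE, BH p = 0.00234), each in 23 of 24 pigs against the high RFI mean. RFC3 of the clamp loader was higher by 0.34 ± 0.11 (SE, BH p = 0.0710) and TFDP2 by 0.23 ± 0.064 (SE, BH p = 0.0374).

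Cell type markers were set against all probes, of which 8.56% were called higher and 14.5% lower for diet. Macrophage markers moved with diet too. All 9 were measured, 7 were higher in HF, from AIF1 at 0.36 to C1QC at 0.81, and 0 lower, with a median of 0.66. Their mean log2 deviation ran from -1.0 to 1.31 in HF (median 0.31) and from -1.27 to 1.02 in LF (median -0.22). Of T and NK cell markers 8 of 9 were measured and 2 were higher, CD3G (0.34) and NKG7 (0.31), with CD4 above background on too few arrays to test. Of 7 measured fat cell markers LEP (-0.94) and CIDEC (-0.24) were lower in HF, with 2 of the 7 above 0 and a median of -0.12. Among 3 tested erythroid markers EPB42 (-0.38) was lower in HF, with 1 of the 3 above 0 and a list median of -0.024. Kidney AQP2 (-0.63), the only kidney marker tested, was lower in HF too. Lists of progenitors, B cells, endothelium, mesothelium, adrenal and muscle had 0 calls in limma, with 5 of 30 genes at an unadjusted p under 0.05. Of all 43355 tested probes 17376 had an unadjusted limma p for diet under 0.05. For line 0 of 57 tested markers were called in limma, against 3.38% of all probes. Of these 57 markers 3 had an unadjusted p for line under 0.05, against 12.6% of all probes.

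Within groups the relation of TOP2A to other cells was followed over the pigs. Over 48 pigs with group means removed, TOP2A and the macrophage mean had a Pearson r of 0.11 (p = 0.435) and a Spearman rho of 0.13 (p = 0.383), by 2-sided permutation within groups with 100000 draws. The r was 0.11 without the 2 pigs farthest from the median marker level, -0.067 on scan day 1 and 0.25 on day 2. Of 11 marker lists set against TOP2A, those of adrenal (r = 0.39, rho = 0.36) and kidney (r = 0.36, rho = 0.30) had the highest r. Each list had 3 of 5 genes measured. CYP17A1 of adrenal and SLC12A1 and NPHS1 of kidney were above background on under 24 arrays, so these 2 lists rest on few detected genes. After BH adjustment over the 11, both Pearson p were 0.0896, and the Spearman p were 0.177 and 0.230. Without the 2 farthest pigs these r were 0.32 and 0.26, and on the 2 scan days 0.61 and 0.15 for adrenal and 0.33 and 0.44 for kidney. The part of other cells in the diet differences of the members was not tested.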

How the data were processed

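Perirenal fat RNA of 48 pigs was hybridised to 1-colour Agilent porcine arrays. Per the file headers, the deposited scanner tables hold spot intensity from Feature Extraction, not normalized. The authors' table holds log2 intensity after spot filtering and median centring in R 2.10.0, per the submitters' processing notes. Its row labels do not match its values: 38141 of its 38142 rows were matched to 1 spot by value, and 2 had the matching label, so it served as an alternative, with 21 members. Genome build: not given in the sources used here.

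Median intensity was put on a log2 scale, outlier-flagged spots were left out, and each array's median over non-control probes was subtracted. Probes well above background on at least 24 arrays (43355) entered limma 3.58.1 (R 4.3.3) with 4 group means, and diet, line and interaction as contrasts. The thresholds are those of the study's methods (raw p under 0.01, fold over 1.1, BH under 0.08), with its two-way ANOVA as an alternative. Group came from the sample labels. Members were matched by gene name, and every member is accounted for. Ranges, differences, SE and BH p were given for members called. The 3 largest differences of each direction, where fewer were called, have SE and BH p, with a range by line for RRM2 alone. Of the 10 largest diet calls of the lists, CDKN1A and KIFC1 have SE and BH p and the others a difference alone. List calls for line have all of these but no range. The 10 genes most like the members were given by r and by the span of their differences. The members and lists were chosen with earlier results of these data known. On simulated data with 50 changed probes per size, diet differences of 0.20, 0.35, 0.50 and 1 were called for 18, 39, 45 and 50 probes, and 12 unchanged probes among 43355 were called. The simulation drew each probe independently and changed few probes, whereas 23.1% of all probes were called for diet in the data. Its rates of missed and of false calls thus do not describe the diet calls here. Permutations, tables and figures used Python 3.11.15, numpy 2.4.6, scipy 1.17.1, pandas 2.3.3 and matplotlib 3.10.9. Alternatives covered normalization, background, filters, slide, scan day, replicate number, weights, thresholds, probes per gene and arrays left out. Spike-in centring, the single scan days, the left-out arrays and the other MKI67 probe were added after seeing the data.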

Additional observations from a re-analysis of the deposited data

How the results depend on the processing

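In the main setting 8 members were called for diet. The count was 5 with probes above background on all arrays (19 members tested), 0 at a fold over 1.5, 5 without the 3 atypical arrays and 2 on scan day 1 alone, and stayed between 6 and 9 under the other 18 alternatives. Leaving out 1 array gave 5 to 10. For line the count of 0 became 1 with array weights (MCM3), 5 without the 3 atypical arrays, and 0 to 1 leaving out 1 array. The interaction had 0 calls in all alternatives. Within low RFI the 3 calls became 1 with probes above background on all arrays and on scan day 2, 0 at a fold over 1.5 and on scan day 1, and 2 to 4 leaving out 1 array. Of all probes only 0.00231% were called within low RFI on scan day 1, and 4.13% on day 2. Within high RFI the 2 calls became 1 under quantile normalization, processed signals, no filter, probes above background on all arrays, ANOVA, BH under 0.05, spike-in centring, without the 3 atypical arrays (CDKN3) and with the other MKI67 probe, and 0 at a fold over 1.5 and on either scan day alone. Leaving out 1 array gave 0 to 3 there. Within HF and within LF line had 0 calls throughout. With O7450 the diet difference of MKI67 turned to 0.0094. Unless stated in the report, the cause of a moved count was not tested. The 28 detected members became 30 with the scanner's other detection flag, and the median r of 0.39 ranged from 0.34 to 0.49.

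With the replicate number as a block, 8 members were called for diet, 0 for line and 0 for the interaction, the same 8 genes for diet. Within high RFI the 2 calls were then MKI67 and PCNA, without MCM2, and within low RFI PCNA was added, giving 4. Pigs with the same number also share a slide and a scan day, with 2 numbers per slide, but no source ties them as pairs: 38 of 72 same-number pairs had a correlation of deviations over 0.1, the median was 0.13 against -0.010 for other pairs, and 17 of 48 pigs correlated best with their own number. Low signals limit TTK, KIF20A, RRM1, CENPE and the MKI67 probe O7450.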
